A study of Homo sapiens with 40 samples.

Results

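The Rab GTPases are described here as measured in MDA-MB-231 cells, a human breast cancer cell line, after treatment with a bisphosphonate or a statin. Members were all array probe sets that carry exactly 1 gene symbol and whose symbol is RAB followed by a number and at most 1 letter. That rule found 63 probe sets for 60 genes, of 19460 probe sets with 1 symbol for 18417 genes and 33297 probe sets in all. No measured value entered the rule. Expression was read on 40 Affymetrix arrays (Human Gene 1.0 ST) in 10 groups of 4 replicates, which the design text calls independent. In lot I, cells received zoledronate at 30 µM, fluvastatin at 2 µM or the solvent alone (control) for 12 h or 24 h. In lot II, cells received zoledronate at 30 µM for 48 h or at 100 µM for 24 h, each beside a solvent control of the same time. All groups are this single line in serum-containing medium, so nothing here bears on another line or tissue.

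Rab proteins are small GTPases that mark the membranes of the secretory and endocytic pathways. Each cycles between a GTP-bound form, which recruits effectors such as tethers and motors, and a GDP-bound form, with exchange factors (GEFs) and GTPase-activating proteins (GAPs) driving the switch. To hold to membranes Rabs carry geranylgeranyl groups, attached by Rab geranylgeranyl transferase with an escort protein, and the GDP-dissociation inhibitors (GDIs) draw them back into the cytosol. Fluvastatin blocks HMG-CoA reductase, and zoledronate, a nitrogen-containing bisphosphonate, blocks farnesyl diphosphate synthase further down the same pathway, which supplies the geranylgeranyl donor. The arrays measure RNA and not the prenylation of the proteins. In bulk RNA, fewer cells of a kind and less RNA per cell cannot be told apart.

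The array medians lay between 6.19 and 6.33 on the log2 scale. Of 5 markers of this mesenchymal line, VIM read 11.76 to 12.48 over the 40 arrays, MSN 11.47 to 12.28, CD44 10.84 to 11.49, AXL 10.53 to 11.80 and CAV1 9.70 to 11.07. AXL fell with fluvastatin at 24 h (-0.50), zoledronate at 48 h (-0.31) and zoledronate at 100 µM (-0.73), where CAV1 also fell (-0.51) and MSN rose (0.21). ESR1, PGR and CDH1 stayed at 5.33 or below, and EPCAM, listed among the genes expected to be low, read 7.09 to 9.09. At 100 µM EPCAM fell on 1 of its 2 probe sets (8041853, -0.35) and ERBB3 of the same list rose (0.27). Among 7 probe sets for markers of blood, endothelial and stromal cells, PTPRC, CD3E, VWF, DCN and LUM passed no test, and PTPRC never exceeded 3.83. Both probe sets of PECAM1, an endothelial adhesion gene, rose after fluvastatin at 24 h (0.98 ± 0.16 and 0.51 ± 0.15, log2 difference ± SE), zoledronate 30 µM at 48 h (0.59 and 0.57) and zoledronate 100 µM (1.30 and 1.77). The mean level of the 7 probe sets was 4.37 to 4.52 on the arrays of 100 µM and 3.96 to 4.05 in their controls, and 4.11 to 4.47 against 4.03 to 4.12 for fluvastatin at 24 h. It was 4.19 to 4.29 against 4.00 to 4.22 for zoledronate at 48 h. The part of any of these markers in the Rab results was not tested.

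Rab probe sets spanned much of the array's range. Their means over the 40 arrays ran from 3.92 to 11.32, and 42 of 63 (66.7%) lay above 6.97, the median of all probe sets with 1 symbol. In all, 12 were among the dimmest probe sets of the table, below a mean of 5.91, RAB37, RAB3B and RAB41 among them. RAB7A, RAB13 and RAB44 each had 2 probe sets, and RAB1C, which matches the pattern, is a pseudogene in RefSeq. Cross-hybridisation between close relatives was not tested.

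Differences below are treated minus control of the same lot, time and replicate number, on the log2 scale, with the standard error of a limma fit over all 40 arrays. A probe set was called at an adjusted p under 0.05, by Benjamini-Hochberg over the 19460 probe sets, two-sided. Counts at an unadjusted p under 0.05 are of Rab probe sets only. The shares over all probe sets are of calls, so they cannot be compared with those counts. Over the 6 comparisons with control, 30 of the 63 Rab probe sets were called at least in 1 comparison and 33 in none. The share of all probe sets called at least in 1 was not computed. Without that share the 30 cannot be read as a result about Rabs as a family. The 31.6% of all probe sets called with 100 µM zoledronate is of 1 comparison and does not stand in for it.

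Zoledronate at 30 µM called no Rab probe set at 12 h or at 24 h. The same limma fit called 0.0% of all probe sets in each comparison, 0 of 19460. At an unadjusted p under 0.05 there was 1 Rab probe set at each time: RAB3A at 12 h (0.27 ± 0.09) and RAB44 (8119102) at 24 h (-0.26 ± 0.10). The median difference of the 63 was 0.04 at 12 h and 0.03 at 24 h, beside 0.01 and 0.00 over all probe sets. RAB5A, RAB7A, RAB8A and RAB27A, which mark early endosomes, late endosomes, exocytic carriers and secretory granules, lay between -0.02 and 0.06 at 24 h.

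**Figure D1:**
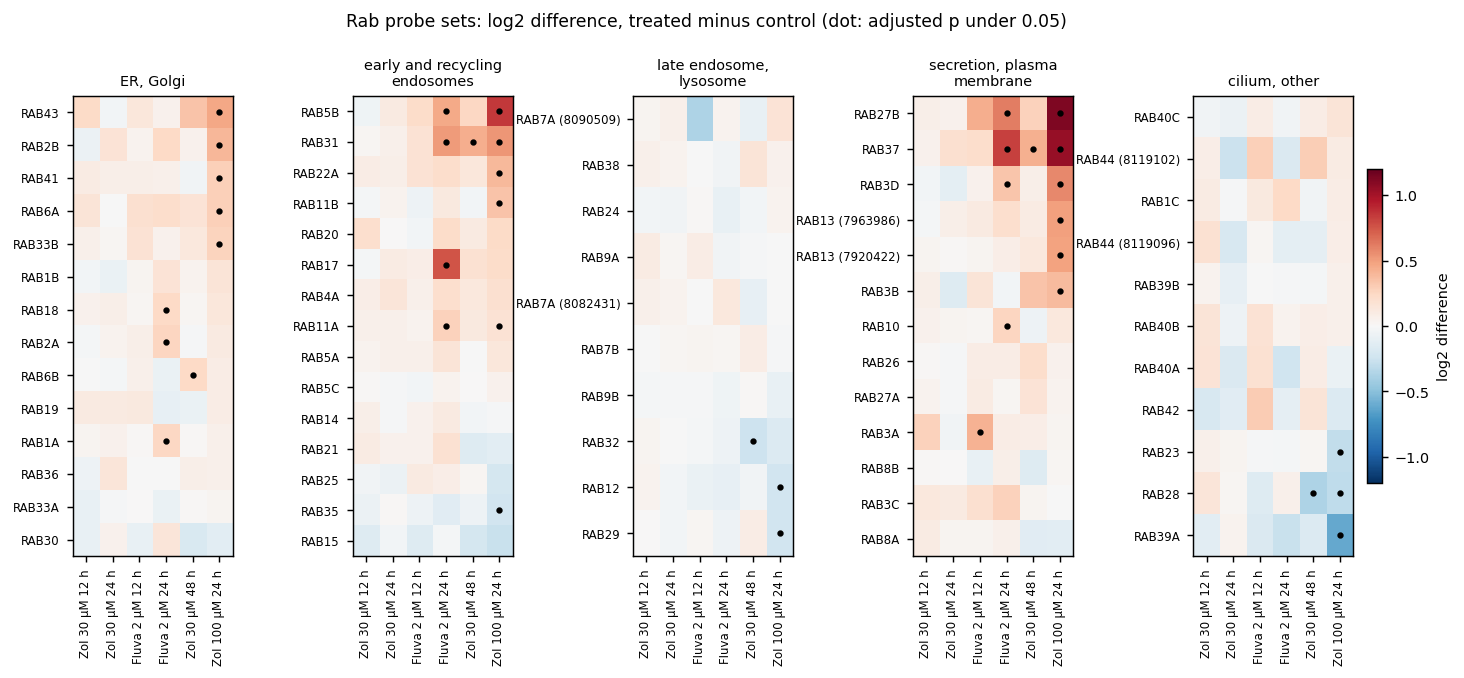
Log2 difference, treated minus control, of each of the 63 Rab probe sets (vertical axis, grouped by the compartment they serve) in the 6 comparisons (horizontal axis), with n = 4 pairs each. Red is higher and blue lower with treatment, and a dot marks an adjusted p under 0.05; the 2 columns of zoledronate 30 µM at 12 h and 24 h hold no dot, and fluvastatin at 24 h holds 11, all red.

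Fluvastatin at 12 h raised 1 Rab probe set, RAB3A, a Rab of synaptic and other regulated secretory vesicles, beside 0.843% of all probe sets called, 0.329% higher and 0.514% lower. Its control arrays read 6.26, 6.17, 6.64 and 6.44, and the fluvastatin arrays 6.83, 6.86, 6.87 and 6.62. The third control and the fourth treated array overlap, and the difference was 0.41 ± 0.09 (adjusted p = 0.026, higher in 4 of 4 pairs). The call was lost without replicate 1, 2 or 3 (adjusted p = 0.051 to 0.275), without pairing (0.0608) and with these 8 arrays fitted alone (0.191). At 24 h RAB3A differed by 0.09 from control, with no call.

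At 24 h of fluvastatin 11 Rab probe sets rose and none fell, 17.5% of the 63, where 10.2% of all probe sets were called, 6.57% higher and 3.6% lower. The groups did not overlap for 6 of the 63, or 9.52%, beside 8.42% over all probe sets. The median Rab difference was 0.07, against -0.01 over all probe sets. Of the 11, 4 serve early or recycling endosomes (of 15 in that group), 4 secretion and transport to the plasma membrane (of 13) and 3 the endoplasmic reticulum and Golgi (of 14). None of the 10 probe sets of late endosomes and lysosomes, nor of the 11 with ciliary or less known roles, was called; 1 and 2 of them had an unadjusted p under 0.05. The count rests on the design of the fit: it was 4 without the pairing of replicates, 3 without replicate 1, 7 without replicate 4, and 0 of 63 when the 8 arrays were fitted alone, a fit that called 2 of 19460.

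RAB37, a Rab of secretory granules, showed the largest change. Its control arrays at 24 h in lot I read 5.19, 5.56, 5.55 and 5.56, and those with fluvastatin 6.44, 6.15, 6.39 and 6.14. All 4 treated arrays lay above all 4 controls, with a difference of 0.82 ± 0.12 (1.76-fold, adjusted p = 0.000179). RAB37 is a dim probe set, so an analysis without the dimmest probe sets leaves it untested. RAB17, which acts in recycling endosomes of epithelial cells, came next. Controls read 5.58, 6.84, 6.29 and 6.42, and treated arrays 6.49, 7.41, 7.29 and 6.98. The groups overlap, yet each treated array exceeded the control of its own number, by 0.55 to 1.00 (0.76 ± 0.11, adjusted p = 0.000277).

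RAB31, which carries cargo between the trans-Golgi network and endosomes, read 8.19, 8.44, 8.42 and 8.51 in the controls and 9.18, 8.69, 8.92 and 8.82 after fluvastatin. The groups were separate and the difference was 0.51 ± 0.08 (adjusted p = 0.000588). At 12 h the fluvastatin arrays stood at a mean of 8.94 ± 0.09 (SD, n = 4), close to the 8.90 ± 0.21 at 24 h, while the controls were 8.76 ± 0.11 at 12 h and 8.39 ± 0.14 at 24 h. That drop between control times did not pass the test (-0.37 ± 0.09, adjusted p = 0.525), although the 2 groups of controls did not overlap.

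RAB27B docks secretory vesicles and multivesicular bodies at the plasma membrane. Controls read 8.39, 8.86, 9.29 and 9.58, and fluvastatin arrays 9.85, 9.15, 9.70 and 9.89, so that the groups overlap. Replicate 1 alone differed by 1.46, and the others by 0.29 to 0.41. The mean difference of 0.62 ± 0.14 (adjusted p = 0.00804) became 0.34 without replicate 1, with no call (adjusted p = 0.132). RAB5B, an isoform of the Rab that directs fusion of early endosomes, had the same uneven pairs: 0.98 in replicate 1 and 0.24 to 0.33 in the others. Its difference was 0.45 ± 0.10 (adjusted p = 0.00465), and 0.27 without replicate 1 (adjusted p = 0.125).

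The other 6 changes were small. RAB11A, the main Rab of recycling endosomes, rose by 0.28 ± 0.06 (adjusted p = 0.00567) from control arrays at 10.08 to 10.42 to treated arrays at 10.50 to 10.59, and RAB10, which serves exocytosis, rose by 0.26 ± 0.07 (adjusted p = 0.0148); in both the groups were separate. RAB3D, a Rab of regulated secretion, rose by 0.33 ± 0.09 (adjusted p = 0.0171) with overlapping groups. In the early secretory pathway RAB1A (0.24), RAB2A (0.26) and RAB18 (0.24) passed narrowly, at adjusted p of 0.0294, 0.0411 and 0.0496. Those 3 calls were lost after median centring of each array. Without replicate 1 RAB37, RAB17 and RAB31 alone were called, and RAB10 differed by 0.17 (adjusted p = 0.257) and RAB2A by 0.17 (adjusted p = 0.414). Without pairing RAB10 was called beside those 3, and without replicate 4 its call was lost.

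Zoledronate at 100 µM for 24 h moved the most Rab probe sets: 16 rose and 6 fell. That is 34.9% of the 63, near the 31.6% called among all probe sets, so the count alone is no result about Rabs as a family. By direction, 25.4% of the Rab probe sets rose and 9.52% fell, where 15.2% and 16.4% of all probe sets did. Treated and control arrays did not overlap for 25, or 39.7%, beside 32.7% over all. The median Rab difference was 0.06 and that of all probe sets 0.01. Called changes were mostly small, and 4 of the 22 reached 1.5-fold: RAB27B, RAB37, RAB5B and RAB39A.

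By role, 6 of 13 probe sets of secretion and plasma membrane transport rose and none fell. Of 15 probe sets for early and recycling endosomes 5 rose and 1 fell, and of 14 for the endoplasmic reticulum and Golgi 5 rose and none fell. Among 10 of late endosomes and lysosomes none rose and 2 fell, and among the 11 others none rose and 3 fell. The role medians were 0.13, 0.17, 0.12, -0.01 and 0.06 in that order. Over all probe sets 15.2% rose and 16.4% fell. Whether the roles differ from each other or from those shares was not tested.

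Among the secretory Rabs, RAB27B read 8.34, 8.46, 8.48 and 8.81 in controls and 9.65, 9.74, 9.60 and 9.59 with 100 µM. The groups were far apart, with a difference of 1.12 ± 0.14 (2.18-fold, adjusted p = 1.7e-06). RAB37 controls read 5.45, 5.29, 5.47 and 5.46, and treated arrays 6.35, 6.47, 6.43 and 6.63. Every treated array was above every control, by 1.05 ± 0.12 on average (2.07-fold, adjusted p = 2.33e-07). RAB3D rose by 0.58 ± 0.09 (adjusted p = 1.61e-05), from controls at 5.99 to 6.47 to treated arrays at 6.59 to 7.07.

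RAB13, which serves tight junction assembly, rose on both of its probe sets, by 0.49 ± 0.09 on 7920422 and by 0.50 ± 0.09 on 7963986 (adjusted p = 0.000152 and 0.000196). On the former the controls lay at 9.03 to 9.25 and the treated arrays at 9.48 to 9.73, without overlap. RAB3B, another Rab of regulated secretion, rose by 0.38 ± 0.12 (adjusted p = 0.0168), with pair differences from 0.01 to 0.89. It was not called with these arrays fitted alone or without replicate 1, nor without replicate 4, where it differed by 0.21 (adjusted p = 0.233). RAB27A, the close relative of RAB27B, differed by 0.04 (95% interval -0.11 to 0.19), and RAB8A by -0.13 (-0.31 to 0.06).

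Among the endosomal Rabs, RAB5B controls read 8.54, 8.49, 8.45 and 8.72 and the arrays with 100 µM 9.48, 9.40, 9.37 and 9.34. The groups were well apart (0.85 ± 0.10, 1.80-fold, adjusted p = 3.39e-07). Its relatives RAB5A (0.14, 95% interval 0.02 to 0.26, adjusted p = 0.084) and RAB5C (0.06) did not pass. RAB31 rose by 0.53 ± 0.08 (adjusted p = 2.2e-05), from 8.42 to 8.65 in controls to 8.95 to 9.07. RAB22A, its nearest relative, rose by 0.39 ± 0.07 (adjusted p = 8.11e-05) and RAB11B by 0.35 ± 0.05 (adjusted p = 1.67e-05), both without overlap. RAB11A rose by 0.17 ± 0.06 (adjusted p = 0.0367). That call was lost without any 1 of the replicates, without pairing, after median centring and with these arrays fitted alone. RAB35, of the fast recycling route, fell by 0.23 ± 0.07 (adjusted p = 0.00992) with overlapping groups, and was not called without replicate 1 or 4, with these arrays fitted alone, or after quantile normalization anew (-0.14, adjusted p = 0.119).

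In the early secretory pathway RAB6A, which drives retrograde transport at the Golgi, rose by 0.29 ± 0.07 (adjusted p = 0.0041), from 9.42 to 9.57 in controls to 9.62 to 9.87. RAB43 (0.46 ± 0.13), RAB2B (0.40 ± 0.11), RAB41 (0.29 ± 0.09) and RAB33B (0.26 ± 0.09) rose as well, each without overlap. Leaving out a single replicate ended the call for each of these 4 (RAB43 without replicate 4, RAB2B without 1 or 2, RAB41 without 2, RAB33B without 1 or 4). RAB1A, the main Rab of transport from the endoplasmic reticulum to the Golgi, differed by 0.06 (95% interval -0.09 to 0.21).

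The largest fall was that of RAB39A, a Rab linked to phagosomes and autophagy, which the role counts place among ciliary and less known roles. Controls read 7.48, 7.72, 7.76 and 7.72 and treated arrays 7.12, 7.15, 6.92 and 7.03. The groups were separate, and the treated level was 1.53-fold lower (-0.61 ± 0.11, adjusted p = 0.000134). RAB23, which acts at the primary cilium in Hedgehog signalling, fell by 0.30 ± 0.08 (adjusted p = 0.0047). RAB29, a trans-Golgi and lysosomal Rab, and RAB12, of transport to lysosomes, each fell by 0.23 (adjusted p = 0.00186 and 0.00312), and RAB29 lost the call without pairing (adjusted p = 0.0752). RAB28, a ciliary Rab, fell by 0.30 ± 0.11 in 3 of 4 pairs (adjusted p = 0.0308). Its call was lost without replicate 3 or 4, without pairing (adjusted p = 0.0568) and with these arrays fitted alone (adjusted p = 0.0636). RAB7A, the defining Rab of late endosomes, differed by -0.00 on 8082431 and 0.16 on 8090509, with no call on either.

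**Figure D2:**
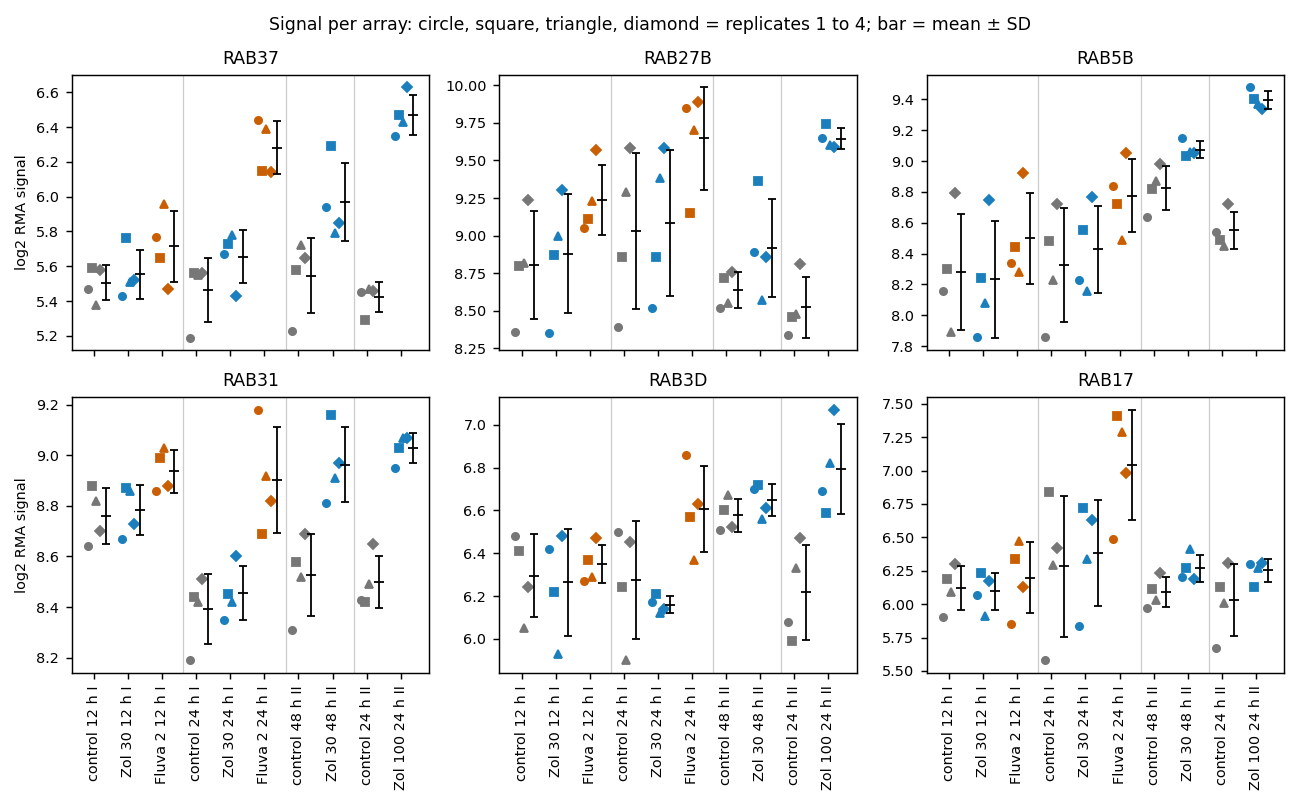
Log2 RMA signal (vertical axes) of 6 Rab probe sets on all 40 arrays, in 10 groups along the horizontal axis (I and II give the lot; grey control, blue zoledronate, orange fluvastatin); symbols give the replicate number and bars the mean ± SD of 4 arrays. With zoledronate 100 µM, RAB37, RAB27B, RAB5B, RAB31 and RAB3D lie above all 4 controls of that lot and time, while RAB17 lies at 6.13 to 6.31 beside controls at 5.67 to 6.31.

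Zoledronate at 30 µM for 48 h raised 3 Rab probe sets and lowered 2, or 7.9% of the 63, close to the 7.39% called among all probe sets (3.1% higher and 4.29% lower). The groups did not overlap for 9, or 14.3%, beside 8.24% over all. RAB31 controls read 8.31, 8.58, 8.52 and 8.69 and treated arrays 8.81, 9.16, 8.91 and 8.97. The groups were separate (0.44 ± 0.08, adjusted p = 0.00254). RAB37 controls read 5.23, 5.58, 5.72 and 5.65 and treated arrays 5.94, 6.29, 5.79 and 5.85, a difference of 0.42 ± 0.12 (adjusted p = 0.0279). The lowest treated array stood just above the highest control. RAB6B, a Golgi isoform enriched in neurons, rose by 0.24 ± 0.07 (adjusted p = 0.0455). RAB32, which serves lysosome-related organelles, fell by 0.24 ± 0.06 (adjusted p = 0.0216) and RAB28 by 0.37 ± 0.11 (adjusted p = 0.0348), both without overlap. RAB27B (0.28) and RAB5B (0.25) did not pass at this time. The call of RAB31 was lost with the 8 arrays fitted alone, and those of the other 4 under 4 to 8 alternatives each, among them without replicate 1. The count was 2 without pairing, 1, 3 and 2 without replicate 1, 2 and 3, and 0 with the 8 arrays fitted alone.

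In lot I both agents were compared directly at matched times. At 12 h no Rab probe set was called between 30 µM zoledronate and 2 µM fluvastatin in the limma fit, beside 0.601% of all probe sets. At an unadjusted p under 0.05 there were 8 Rab probe sets, with no share over all given at that rule. At 24 h 8 Rab probe sets were lower with zoledronate and none higher, 12.7% of the 63, beside 7.05% of all probe sets called, 2.87% higher and 4.17% lower. RAB17 differed by -0.66 ± 0.11 (adjusted p = 0.00149), RAB37 by -0.63 ± 0.12 (0.00285), RAB27B by -0.56 ± 0.14 (0.0195), RAB3D and RAB31 by -0.45 (0.00383 and 0.00276), RAB5B by -0.35 (0.0307), RAB10 by -0.23 (0.0382) and RAB11A by -0.22 (0.0319). The fluvastatin arrays are those of the comparison with control. Both agents' arrays were separate for RAB31, RAB37, RAB3D, RAB11A and RAB10, and overlapped for RAB17, RAB27B and RAB5B, and over all 63 they were separate for 8 (12.7%), beside 6.66% of all probe sets. Without replicate 1 RAB27B differed by -0.31 (adjusted p = 0.239), and RAB17, RAB31 and RAB37 alone were called. The count was 3 without pairing, 5 without replicate 3 or 4, and 0 with these arrays fitted alone.

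**Figure D3:**
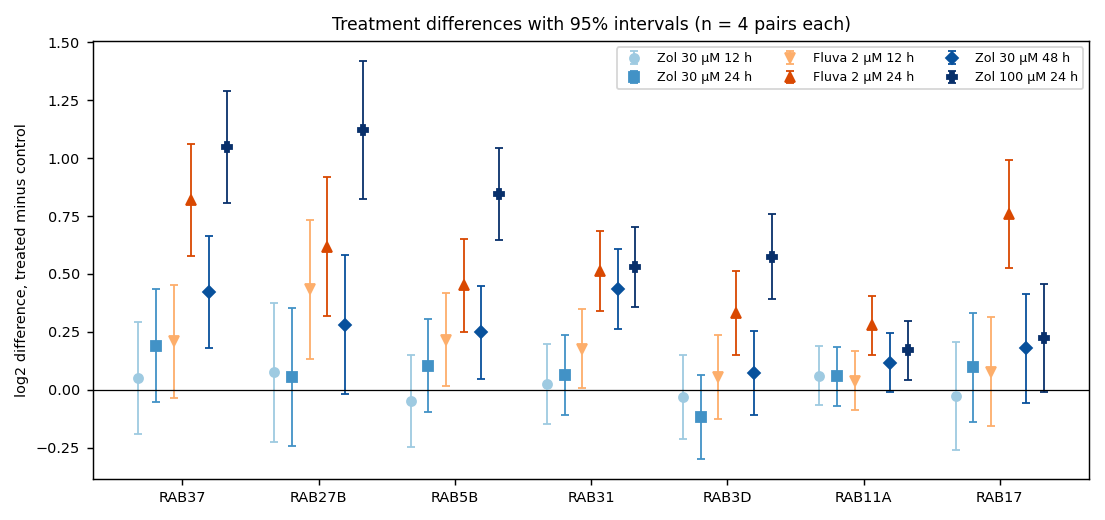
Log2 difference, treated minus control (vertical axis), with 95% intervals from the limma fit for 7 Rab genes (horizontal axis) in the 6 comparisons, n = 4 pairs each. RAB27B, RAB5B and RAB3D are highest with zoledronate 100 µM, RAB17 is highest with fluvastatin at 24 h (0.76), and zoledronate 30 µM at 12 h and 24 h lies between -0.12 and 0.19 for all 7.

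Fluvastatin at 24 h and zoledronate at 100 µM have their own controls in different lots, so their effects could be set against each other. RAB11A, RAB27B, RAB31, RAB37, RAB3D and RAB5B rose in both. The share of all probe sets that rose in both was not computed, so their number is no result about Rabs as a family. In the limma fit no Rab probe set passed the test of the difference between the 2 effects, where 5.56% of all probe sets did. At an unadjusted p under 0.05 there were 13 Rab probe sets, with no share over all probe sets given at that rule. RAB17 came closest, with an effect 0.54 ± 0.16 smaller under zoledronate, a difference of -0.54 (95% interval -0.87 to -0.20, adjusted p = 0.0506). It read 6.30, 6.13, 6.27 and 6.31 at 100 µM beside controls of 5.67, 6.13, 6.01 and 6.31, an overlapping difference of 0.22. For RAB5B the effect of zoledronate was larger by 0.39 (0.11 to 0.68, adjusted p = 0.0944) and for RAB27B by 0.50 (adjusted p = 0.156). The intervals for RAB37 (-0.11 to 0.57) and RAB31 (-0.22 to 0.26) include no difference. Without replicate 1 the count of Rab probe sets that passed was 5, with no share over all given for that fit. The agents and the lots cannot be told apart in this contrast.

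Within fluvastatin, no Rab probe set passed the test of the 24 h effect against the 12 h effect, where 0.0% of all probe sets did. At an unadjusted p under 0.05 there were 11 Rab probe sets, with no share over all given at that rule. The largest contrast was RAB17, at 0.68 ± 0.16 (adjusted p = 0.148), followed by RAB37 at 0.61 ± 0.17 (adjusted p = 0.231).

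At 24 h the effect of 100 µM zoledronate exceeded that of 30 µM for 10 Rab probe sets and lay below it for 2, or 19.0% of the 63, beside 19.9% of all probe sets. The doses were run in different lots, each against its own control. RAB27B differed most, by 1.07 ± 0.20 (adjusted p = 0.000567), then RAB37 by 0.86 ± 0.17 and RAB5B by 0.74 ± 0.14, and among the lower ones RAB39A by -0.66 ± 0.16 (adjusted p = 0.00437). Against 30 µM at 48 h, in the same lot, the effect of 100 µM at 24 h was larger for RAB27B (0.84), RAB37 (0.63), RAB5B (0.60), RAB3D (0.50) and RAB11B (0.38) and lower for RAB29 (-0.32). These 6 make 9.5% of the 63, beside 7.99% of all probe sets. Dose and time both differ in that contrast. Without pairing the counts were 7 and 1, and without replicate 3 they were 6 and 2. The latter was 3 without replicate 4.

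Untreated levels were compared between times and lots. No Rab probe set passed in the limma fit between 24 h and 12 h in lot I, where 0.0% of all probe sets did. None passed between 48 h and 24 h in lot II, where 1.06% of all did. At an unadjusted p under 0.05 each comparison had 4 Rab probe sets, with no share over all given at that rule. With replicate numbers paired, 3 passed between 48 h and 24 h, 2 higher and 1 lower at 48 h, with no share over all given for that fit. Between the lots at 24 h, 7 Rab probe sets differed, 11.1% beside 16% of all probe sets. RAB24 (-0.46), RAB35 (-0.38), RAB33B (-0.35), RAB3B (-0.33), RAB29 (-0.28) and RAB40C (-0.27) were lower in lot II, and RAB12 (0.23) was higher. The lowest difference of all Rab probe sets, -0.51, was not called. It is that of RAB27B, whose controls averaged 9.03 ± 0.52 (SD) in lot I and 8.52 ± 0.20 in lot II. RAB3B differed by -0.20 without replicate 4 (adjusted p = 0.336). The count was 3, 3 and 2 without replicate 1, 2 and 3, and 15 with a block for replicate number within each lot. The share of 16% is of the main fit, and none is given for these alternatives. The same lot II arrays are the controls for 100 µM zoledronate. Against them RAB12, RAB33B and RAB3B moved by -0.23, 0.26 and 0.38, opposite in sign to their lot difference, and RAB35 and RAB29 both moved by -0.23, with the same sign. How far the shared controls set these values was not tested.

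Calls differed among close relatives within the family. RAB27B was called after fluvastatin at 24 h and zoledronate at 100 µM, and RAB27A in none of the 6 comparisons with control, with differences from -0.02 to 0.17. RAB5B was called in both and RAB5A and RAB5C in none, with RAB5A between -0.00 and 0.15 and RAB5C between -0.03 and 0.06. In the Rab3 subfamily, whose members act in regulated exocytosis, RAB3D was called in both, RAB3B with 100 µM zoledronate, RAB3A with fluvastatin at 12 h and RAB3C in none. RAB11A was called in both and RAB11B with 100 µM zoledronate, while RAB31 was called in both and at 48 h. Differences between relatives were not tested, and their probe sets can respond unequally to the same change in RNA.

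**Figure D4:**
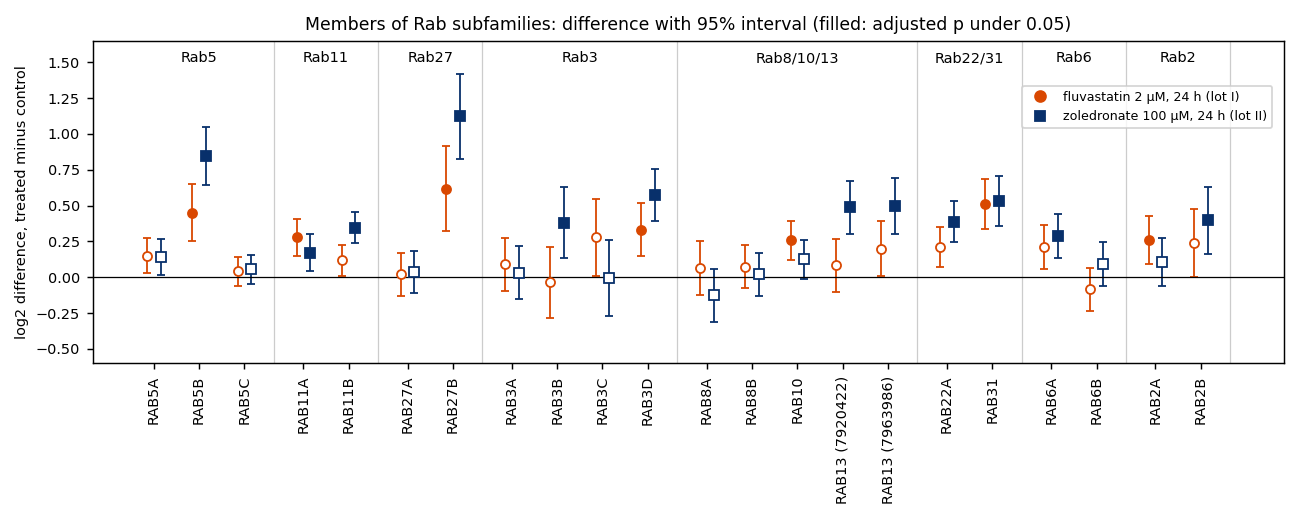
Log2 difference, treated minus control (vertical axis), with 95% intervals for members of 8 Rab subfamilies (horizontal axis) after fluvastatin 2 µM (orange circles) and zoledronate 100 µM (blue squares) at 24 h; filled symbols have an adjusted p under 0.05, n = 4 pairs each. RAB5B stands at 0.45 and 0.85 beside RAB5A at 0.15 and 0.14, and RAB27B at 0.62 and 1.12 beside RAB27A at 0.02 and 0.04.

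The 33 probe sets called in none of the 6 comparisons with control had differences between -0.37 and 0.31, with a median size of 0.07. In the endoplasmic reticulum and Golgi group they were RAB1B, RAB19, RAB30, RAB33A and RAB36, within -0.18 to 0.17. Among endosomal Rabs they were RAB4A, RAB5A, RAB5C, RAB14, RAB15, RAB20, RAB21 and RAB25, within -0.27 to 0.23. In the late endosomal group they were RAB7A on both probe sets, RAB7B, RAB9A, RAB9B, RAB24 and RAB38, within -0.37 to 0.16. Both ends of that range are of the dimmer RAB7A probe set, 8090509, with a mean of 6.03 over the 40 arrays. The brighter 8082431, with a mean of 11.25, stayed within -0.10 to 0.12. In secretion they were RAB3C, RAB8A, RAB8B, RAB26 and RAB27A, within -0.15 to 0.28, and among the rest RAB1C, RAB39B, RAB40A, RAB40B, RAB40C, RAB42 and both probe sets of RAB44, within -0.26 to 0.31. RAB15 (-0.27, adjusted p = 0.0547) with 100 µM zoledronate was the nearest of these to the threshold in that comparison.

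To show the DNA in front of the genes that rose with both fluvastatin and 100 µM zoledronate, the 250 bases before the annotated start are printed for those with an entry in the RefSeq promoter table (GRCh38.p14). Of the 6 genes 5 had an entry, RAB27B and RAB5B with more than 1 start, and the second start of RAB5B, which overlaps the former, is not printed. The windows read 5′ to 3′ on the gene's strand. Capitals mark 3 motifs found on either strand: the GC box GGGCGG bound by SP1, the E-box CACGTG bound by MYC and its relatives, and the AP-1 site TGANTCA bound by FOS and JUN.
RAB31, chr18:9708051-9708300, plus strand: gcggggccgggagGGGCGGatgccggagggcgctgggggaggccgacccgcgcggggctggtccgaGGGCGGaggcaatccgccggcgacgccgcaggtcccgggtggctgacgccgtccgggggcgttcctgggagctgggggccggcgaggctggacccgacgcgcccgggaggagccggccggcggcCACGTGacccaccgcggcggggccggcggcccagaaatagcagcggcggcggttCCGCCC
RAB5B, chr12:55973699-55973948, plus strand: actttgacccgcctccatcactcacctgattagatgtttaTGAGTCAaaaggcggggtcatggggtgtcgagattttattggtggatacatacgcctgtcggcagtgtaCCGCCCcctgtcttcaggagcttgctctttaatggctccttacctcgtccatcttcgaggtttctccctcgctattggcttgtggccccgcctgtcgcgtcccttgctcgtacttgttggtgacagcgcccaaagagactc
RAB27B, chr18:54717607-54717856, plus strand: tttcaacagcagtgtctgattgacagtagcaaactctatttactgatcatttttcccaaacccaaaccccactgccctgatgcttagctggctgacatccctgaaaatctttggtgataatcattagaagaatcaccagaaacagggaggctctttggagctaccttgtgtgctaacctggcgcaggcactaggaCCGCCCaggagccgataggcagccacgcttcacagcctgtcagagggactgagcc
RAB27B, chr18:54828227-54828476, plus strand: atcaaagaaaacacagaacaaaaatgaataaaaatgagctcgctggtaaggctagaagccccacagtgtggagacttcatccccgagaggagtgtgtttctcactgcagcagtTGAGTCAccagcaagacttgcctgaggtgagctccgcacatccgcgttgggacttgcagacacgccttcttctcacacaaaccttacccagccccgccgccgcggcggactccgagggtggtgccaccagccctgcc
RAB11A, chr15:65869241-65869490, plus strand: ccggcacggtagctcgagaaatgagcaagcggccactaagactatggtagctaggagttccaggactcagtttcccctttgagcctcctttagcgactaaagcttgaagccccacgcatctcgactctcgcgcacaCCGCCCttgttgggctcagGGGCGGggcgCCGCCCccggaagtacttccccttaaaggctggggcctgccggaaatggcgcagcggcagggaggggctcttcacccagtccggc
RAB3D, chr19:11339658-11339907, minus strand: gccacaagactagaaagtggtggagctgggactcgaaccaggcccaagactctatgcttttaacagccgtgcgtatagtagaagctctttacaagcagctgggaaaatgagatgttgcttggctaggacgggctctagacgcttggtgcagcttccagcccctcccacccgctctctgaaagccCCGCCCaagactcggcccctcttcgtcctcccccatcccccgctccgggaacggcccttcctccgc
RAB31 has the most GC-rich of these windows, at 82.0% G and C, with 3 GC boxes and the single E-box. RAB11A has 3 GC boxes, and the others have 1 except for the second start of RAB27B, which has none. The AP-1 letters stand in the second start of RAB27B and in RAB5B, and in no other of the 6 windows. Over the windows of 46 Rab genes, 65 in all, 73.8% held a GC box, beside 42.6% of 35116 windows in the table. The shares were 7.7% and 6.3% for the E-box and 7.7% and 6.6% for the AP-1 site. The shorter hypoxia response core ACGTG, which is contained in the E-box and is not marked on its own, was in 27.7% of the Rab windows and 18.5% of all. A match describes the letters only, and binding was not measured.

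Genes that attach Rabs to membranes and retrieve them moved in both directions with 100 µM zoledronate. Of 7 measured genes of prenylation and the membrane cycle 3 rose and 3 fell, where 15.2% of all probe sets rose and 16.4% fell. RABGGTB, the catalytic subunit of Rab geranylgeranyl transferase, fell by 0.49 ± 0.06 (adjusted p = 3.49e-07), CHML, an escort protein, by 0.56 ± 0.08 (adjusted p = 3.78e-06) and GDI2 by 0.22 ± 0.05 (adjusted p = 0.00136). RABAC1, a prenylated Rab acceptor, rose by 0.60 ± 0.10 (adjusted p = 4.82e-05), RABGGTA, the other transferase subunit, by 0.24 ± 0.06 and GGPS1, which makes geranylgeranyl diphosphate, by 0.47 ± 0.17. In the untreated cells at 24 h 3 of the 7 were called higher in lot II than in lot I and 2 lower, where 6.39% and 9.58% of all probe sets were. RABGGTB and CHML were higher, by 0.62 and 0.43, and RABAC1 was lower, by -0.75. Each of these is opposite to the change against those same lot II controls. The lot differences of the other genes are not given here. How far the shared controls set these values was not tested. RABAC1 also rose with fluvastatin at 24 h (0.38 ± 0.10, adjusted p = 0.0181), the single call of the 7 there, and at 48 h of zoledronate none was called.

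The lists of regulators are read beside the same shares of all probe sets, 31.6% with 100 µM zoledronate and 10.2% with fluvastatin at 24 h. Among 33 probe sets of Rab GEFs 10 rose and 5 fell with 100 µM, and 3 rose and 1 fell with fluvastatin. MADD, an exchange factor for the Rab3 and Rab27 groups, rose in both (0.43 ± 0.06, adjusted p = 2.62e-06, and 0.27 ± 0.06, adjusted p = 0.0038) and at 48 h of zoledronate (0.22 ± 0.06, adjusted p = 0.0218). DENND4C, an exchange factor for RAB10, rose by 0.73 ± 0.12 and 0.46 ± 0.12 in the first pair of comparisons. Among 33 probe sets of GAPs 11 rose and 7 fell with 100 µM zoledronate, and 5 rose and 4 fell with fluvastatin at 24 h. TBC1D2, a GAP for RAB7A, fell by 1.11 ± 0.12 (adjusted p = 1.69e-07) and by 0.53 ± 0.12 (adjusted p = 0.00644), and TBC1D8B rose by 0.74 ± 0.10 and 0.50 ± 0.10.

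Of 50 Rab effectors 17 rose and 8 fell with 100 µM zoledronate, and 9 rose and 2 fell with fluvastatin at 24 h. OPTN, an effector of RAB8 and an autophagy receptor, rose by 1.24 ± 0.12 (adjusted p = 3.9e-08) with 100 µM. MICAL1, an actin-oxidising enzyme that binds Rabs, rose by 0.67 ± 0.07 with 100 µM and by 0.39 ± 0.07 with fluvastatin, and MLPH, which links RAB27 proteins to a myosin motor, by 0.79 ± 0.09 with 100 µM and by 0.50 ± 0.09 at 48 h of zoledronate. SYTL2, a vesicle tether that binds RAB27 proteins, rose by 0.36 ± 0.08 with fluvastatin, with overlapping groups. FDPS, the target of zoledronate given for reference, passed in none of the 6 comparisons.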

How the data were processed

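RNA levels come from 40 arrays of 1 cell line. Per the submitters' processing notes, the authors made the deposited log2 values with RMA in Affymetrix Power Tools 1.10.2 and tested with limma. The genome build is not given in the sources used here, and neither is whether the lots were normalized together. Quantile normalization assumes like distributions and can shift values where many genes change. Raw scans were not used, so background correction could not be varied.

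Names are those of the platform annotation. Of 33297, 19460 had 1 symbol, 1754 several and 12083 none listed. All 63 Rab probe sets matched RefSeq (GRCh38.p14) by gene number. limma 3.58.1 in R 4.3.3 (lmFit, eBayes) fitted 16 blocks of lot, time and replicate number and 6 treated effects to all 40 arrays. Benjamini-Hochberg adjustment ran over all 19460. Control groups were compared in a fit of 10 group means. The fit was tested on simulated data.

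The block follows the design text, which pairs arrays by day of measurement. Deviations of same-numbered arrays correlated at r = 0.17 to 0.60 in lot I. They correlated at -0.29 to 0.55 at 48 h and -0.09 to 0.25 at 100 µM, so there the pairing rests on the text alone.

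Members and lists were chosen with earlier results of these data known. Text names up to 12 called Rab probe sets a comparison by smallest p, standard compartment markers, genes with 2 probe sets, up to 4 called machinery genes per list, and the remaining members, added after seeing values, to account for each. Of the 9, 35, 35 and 52 machinery genes listed, 7, 32, 33 and 50 were measured. RABGGTA and GGPS1 were added once values were known. The alternatives comprised no pairing, 1 probe set per gene, median centring, quantile normalization anew, removal of the dimmest probe sets, an intensity trend, the compared arrays alone, and each replicate left out. A further reference gene is not reported here.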

Additional observations from a re-analysis of the deposited data

Results flagged for a closer look

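In a group of 4 pair differences, 1 pair stood apart from the other 3 for 6 of 47 called results, and chance alone does this for about 1 in 20 groups. For fluvastatin at 24 h the pair was replicate 1 for RAB27B (1.46) and RAB5B (0.98). RAB27B in the contrast of both agents at 24 h stood apart in the same replicate, at -1.34. With 100 µM zoledronate the pairs were 0.63 for RAB5B, 0.49 for RAB3D and 0.40 for RAB33B.

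The effect of 100 µM zoledronate at 24 h differed from that of 30 µM at 24 h, by the test of the difference, for 12 Rab probe sets. The differences were 1.07 for RAB27B, 0.86 for RAB37, 0.74 for RAB5B, 0.69 for RAB3D, 0.53 for RAB3B and 0.47 for RAB31. For RAB13 they were 0.47 (7920422) and 0.42 (7963986), for RAB22A 0.32 and for RAB11B 0.31. RAB39A (-0.66) and RAB23 (-0.33) differed the other way. RAB3B was not called without replicate 1 or 3, nor without replicate 4, where the difference was 0.29 (adjusted p = 0.325). Those doses were run in different lots.

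Against 30 µM at 48 h the effect differed for 6: RAB27B (0.84), RAB37 (0.63), RAB5B (0.60), RAB3D (0.50), RAB11B (0.38) and RAB29 (-0.32).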

How the results depend on the processing

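Of 780 values of 72 named Rab results under the alternatives, 604 kept their call, 176 lost it and none reversed. Calls of the machinery genes and of the cell markers are not among the 72. How far those calls depend on the processing is not known from these counts. Without the pairing (no replicate block) the count of called Rab probe sets was 0 for fluvastatin at 12 h, 4 at 24 h, 2 for zoledronate at 48 h, 3 for both agents at 24 h, 7 for 100 µM less 30 µM at 24 h and 1 less 30 µM at 48 h. With the replicate block, controls differed for 3 probe sets between 48 h and 24 h and 15 between lots. The block moved no other count by over 1.5 times. With the compared arrays alone the counts were 0, 0, 0 and 0 for the first 4 of these and 3 for the last. After quantile normalization anew the 48 h count was 3. The contrast of 100 µM zoledronate with fluvastatin, 0 in the main analysis, had 1 call with 1 probe set per gene, 1 with median centring, 4 after quantile normalization anew, 3 without the dimmest probe sets and 3 with an intensity trend. Leaving out each replicate gave 0 to 1 for fluvastatin at 12 h, 3 to 11 at 24 h, 1 to 6 for zoledronate at 48 h, 17 to 20 at 100 µM, 3 to 8 for both agents at 24 h, 0 to 5 for 100 µM less fluvastatin, 6 to 11 less 30 µM at 24 h, 2 to 9 less 30 µM at 48 h and 2 to 5 for the lots. Shares over all probe sets are not given beside these counts, so they cannot be read as results about Rabs as a family. The causes were not tested. The number of arrays limits precision, and signals near background bound what dim probe sets can show.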
